A study of Mus musculus with 16 samples.

Results

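DNA replication and G1/S genes are the genes whose products license replication origins, unwind and copy DNA, supply its nucleotides and start S phase. The 39 members were chosen by symbol, from a list of such genes drawn up with earlier results of these data known, among the 23337 gene symbols counted. All 39 were measured and all passed the filter on low counts, which 12952 genes passed in all. Before S phase, the origin recognition complex with CDC6 and CDT1 loads the MCM2-7 ring onto DNA. CDC45 and the GINS complex turn that ring into an active helicase, and polymerases held on DNA by the PCNA clamp copy both strands. Cyclin E with its kinase drives the step into S phase, and E2F factors, held back by RB-family proteins, switch on most of these genes when an activated T cell starts to divide.

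The study put a miR-23a, a miR-24, a miR-27a or a control mimic (a synthetic small RNA that acts as the mature microRNA) into primary mouse CD4+ T cells and counted RNA-seq reads per gene, with 4 libraries in each of the 4 groups. All 4 groups, control included, came from C57BL/6 mice with the genotype Dgcr8f/f Tbet-/- CD4-cre, a RosaYFP reporter marking cells with Cre activity. T cells that expressed Cre therefore lacked DGCR8, which is needed to make most microRNAs. With or without Cre, the cells lacked T-bet, the factor of type 1 helper cells, so no group is a wild-type T cell. Spleen and lymph node CD4+ T cells were activated through CD3 and CD28 with IL-4 at 10 units/ml for 3 days and kept with IL-2 at 20 units/ml for another 2 days. The mimics were given at 500 nM on days 1 and 4, and 150000 to 800000 live YFP+ cells were sorted per sample. The labels name no mouse, culture or lane for a library, so each p-value measures the spread between libraries, which may be technical. In bulk RNA, fewer cells in S phase and less RNA per cell cannot be told apart.

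The mature sequences of the 3 microRNAs are shown because each mimic is compared with the sites in the members below. They are the 3p arms in RefSeq (GRCm38.p6), an assumption since the labels name no arm, written 5′ to 3′ with the seed, bases 2 to 8, in capitals.
miR-23a-3p, chr8:84208563-84208583, plus strand: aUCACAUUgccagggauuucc
miR-24-3p, chr8:84208875-84208896, plus strand, with a second copy at chr13:63301251-63301272: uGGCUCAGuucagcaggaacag
miR-27a-3p, chr8:84208727-84208747, plus strand: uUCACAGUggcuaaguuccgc
The seeds differ between all 3, so no pair of mimics shares a seed, although those of miR-23a (UCACAUU) and miR-27a (UCACAGU) differ by a single base.

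The control library numbered 1 held 51474 gene reads, and the other 15 libraries held 2120408 to 13714841. In that control library 249 reads fell on the members, 7 members had no read (Mcm10, Gins1, Gins2, Gins3, Rfc4, Rfc5 and E2f1) and 28 had fewer than 10. A single read there equals 16.3 CPM (counts brought to a common library total after correction for library composition), and a count of 0 allows up to 48.8 CPM, counting error only. Its values are printed but carry little weight. The T cell genes Cd3e and Cd4 stood at 534 to 1083 CPM and 297 to 947 CPM over the other 15 libraries. Summed over 7 measured T cell markers, the level was 1963 to 2504 CPM with miR-23a, 1619 to 1913 CPM with miR-24, 2159.6 to 2309 CPM with miR-27a and 1839.6 to 2387 CPM with control, so that the miR-24 libraries lay below all miR-23a and miR-27a libraries and overlapped control. The 4 natural killer markers together gave 0.994 to 17.1 CPM with miR-23a, 4.47 to 84.5 CPM with miR-24, 7.60 to 60.1 CPM with miR-27a and 2.13 to 62.9 CPM with control, and 1 of the 4 had no read in any library. The share of reads on the ribosomal RNA gene Rn45s was 1.77% to 10.5% with miR-23a, 1.65% to 19.1% with miR-24, 1.17% to 10.2% with miR-27a and 0.300% to 4.41% with control, with means of 6.06%, 9.07%, 6.16% and 2.10% in that order. The part of these differences in the results below was not tested.

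Few of the 39 genes passed the test in any comparison. Rfc3 and Orc1 rose with miR-24 against control. Rfc3 and Rfc2 were lower with miR-23a than with miR-24. No other member passed in any of the 6 comparisons. Each gene was fitted over all 16 libraries, blocked by replicate number (edgeR's quasi-likelihood test, Benjamini-Hochberg adjustment over all genes tested, threshold 0.05). A gene is called, or passed, only by that test, and calls by DESeq2, a second tool, are given by name. In the test of all 4 groups together, 2 members passed, Rfc3 (adjusted p = 0.00855) and Rfc2 (adjusted p = 0.0474), which is 5.13% of the members beside 9.68% of all genes. Orc1 just missed (adjusted p = 0.0524). DESeq2 called 8 members in that test (E2f2, Fen1, Mcm7, Orc1, Pold1, Rfc2, Rfc3 and Rrm2), beside 2323 of all genes. Without the adjustment, p was under 0.05 for 15 members, 38.5% of them, and for 27.8% of all genes.

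Against control, miR-24 gave 2 higher members, where 2.32% of all genes were called higher, and 0 lower members, where 2.25% were called lower. In that comparison 6 members had an unadjusted p under 0.05, 15.4% of them beside 20.3% of all genes. DESeq2 called 5 there (Mcm4, Orc1, Pold1, Rfc2 and Rfc3), beside 1029 of all genes. For miR-27a against control, 0 members were called, beside 1.75% of all genes higher and 1.32% lower. In that comparison 11 members had an unadjusted p under 0.05, 28.2% of them beside 21.8% of all genes. DESeq2 called 4 there (E2f2, Mcm7, Rfc3 and Rrm2), beside 951 of all genes. For miR-23a against control, 0 members were called, beside 0.0386% of all genes higher and 0.386% lower, with 6 members at an unadjusted p under 0.05 and 1 call by DESeq2 (Fen1). Between mimics, miR-23a against miR-24 gave 0 higher and 2 lower members, beside 2.73% and 2.65% of all genes. In that comparison 8 members had an unadjusted p under 0.05, 20.5% of them beside 18.4% of all genes. DESeq2 called 3 there (Orc1, Rfc2 and Rfc3), beside 1060 of all genes. Comparing miR-24 with miR-27a gave 0, beside 1.8% of genes higher and 2.62% lower. There 10 members had an unadjusted p under 0.05, 25.6% of them beside 19.4% of all genes. DESeq2 called 2 (Rfc2 and Tk1), beside 999 of all genes. Comparing miR-23a with miR-27a gave 0, beside 0.957% of genes higher and 1.99% lower. There 11 members had an unadjusted p under 0.05, 28.2% of them beside 15.9% of all genes. DESeq2 called 3 (Cdt1, Fen1 and Rfc3), beside 713 of all genes. Under another scaling (RLE), 61.8% of all genes called with miR-24 against control were higher, against 50.8% under the scaling used, and 52.9% against 40.7% for miR-24 against miR-27a. Counts of 0 and 2 called among 39 genes do not set the members apart from the shares of all genes called. Without the block, edgeR called 0 members in every comparison. There 9 members had an unadjusted p under 0.05 in the 4-group test, beside 2218 of all genes. In the 6 comparisons 2 to 8 members did, beside 1341 to 1857 of all genes. The 3 comparisons with control share the same 4 control libraries, so their values stand side by side and are not counted as separate support.

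**Figure D1:**
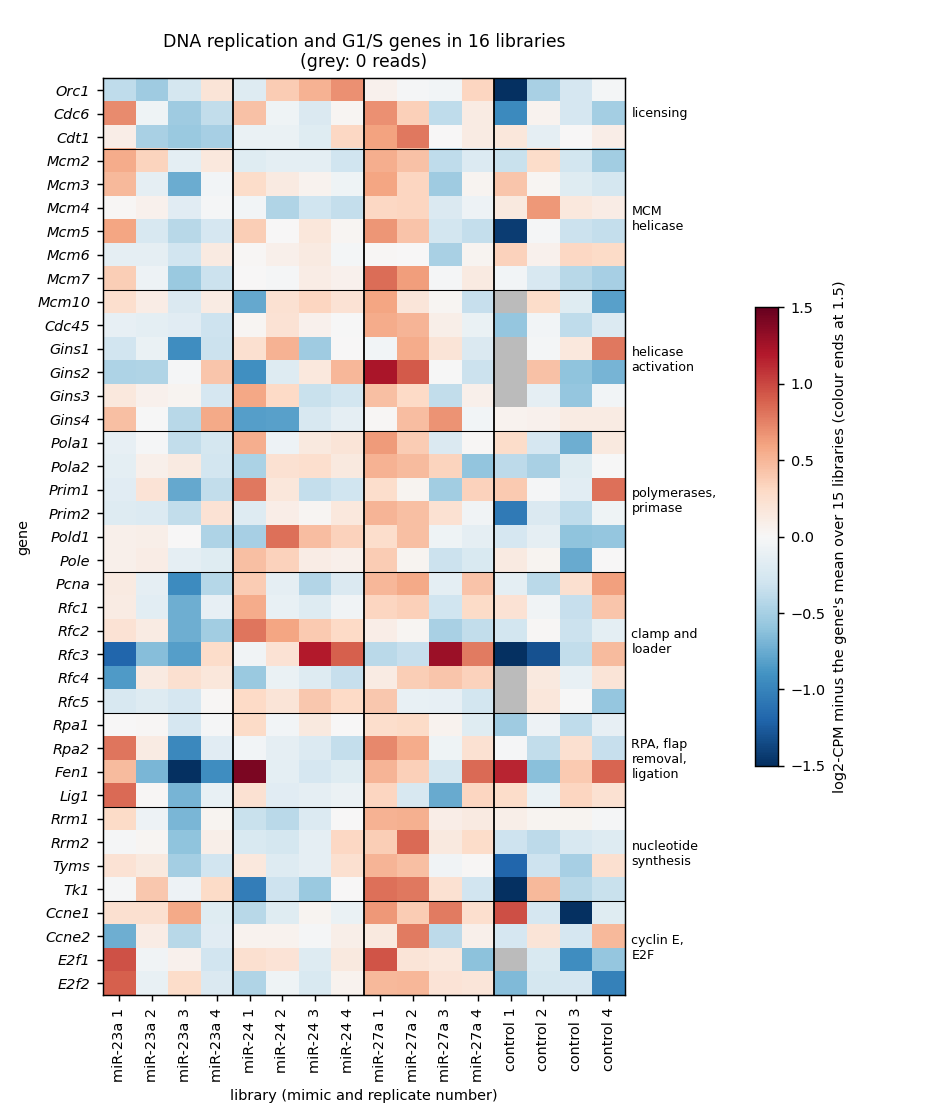
Each row is a member, grouped by role, and each column is a library, with mimics left of control. Colour gives log2-CPM minus the gene's mean over 15 libraries (control 1 left out of the mean), and grey marks 0 reads. The miR-27a libraries numbered 1 and 2 are red over most rows, and control 1 holds all 7 grey cells.

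The members were first summed within each library. Their summed level was 4310 ± 834 CPM with miR-23a, 4455 ± 234 CPM with miR-24, 5241 ± 880 CPM with miR-27a and 4274 ± 228 CPM with control (mean ± SD, n = 4 each). The miR-27a group had the highest mean, and its libraries numbered 1 and 2, with 6070 and 5853 CPM, stood above its libraries 3 and 4, with 4187 and 4854 CPM. These 2 high libraries were also the shallowest but for control 1, with 2972976 and 2120408 gene reads, and the part of depth was not tested. Over the 12 libraries numbered 2 to 4, the median member had a standard deviation of 0.33 log2-CPM, against 0.50 for all genes tested. Of a member's variance over those libraries, the mimic group held a median of 43.8% and the replicate number 21.2%, against 35.9% and 22.2% for all genes. These are descriptions, and part of each share follows from the number of groups and numbers alone.

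Per kilobase of annotated exon, Pcna was highest, with a median of 172 CPM per kb over 15 libraries, followed by Rrm2 at 94.1, Mcm4 at 72.5, Mcm6 at 69.1, Lig1 at 68.2 and E2f2 at 65.7. Pcna ranged from 97.9 to 288 CPM per kb and Rrm2 from 62.7 to 171, so their ranges overlap, as do those of Mcm4, Mcm6, Lig1 and E2f2. Rfc2 was lowest, at 3.20 CPM per kb (range 1.87 to 5.51), with Mcm10 (4.28) and Rfc5 (4.32) next and overlapping it. The clamp and a part of its loader thus mark both ends of the range. All exons of a gene were counted in its length, so a gene with long rare exons reads low.

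Of the origin licensing genes, Orc1 rose with miR-24. ORC1, the largest subunit of the origin recognition complex, has its gene on chromosome 4. That gene shares 10.8% of its exon bases with Gm12743 on the other strand. Strand counting is not stated in the sources used, so the strands cannot be told apart. Orc1 had 49.6, 73.7, 81.3 and 91.4 CPM in miR-24 libraries 1 to 4, against 16.3, 40.3, 47.7 and 55.6 CPM in control libraries 1 to 4. Each miR-24 library was above the control library of the same number, while the groups overlap because miR-24 library 1 lies below control library 4. That pairing rests on the shared number alone, and the value of control library 1 is a single read. The log2 fold change was 0.73 ± 0.20 (SE; 95% interval 0.31 to 1.16; edgeR adjusted p = 0.0449). Without the block the adjusted p was 0.214, and the call was lost in 7 of the 8 fits that left out 1 library, all but the one without miR-24 library 1. With miR-27a Orc1 had 59.4, 55.9, 55.2 and 71.1 CPM and a log2 fold change of 0.46 ± 0.21 against control (edgeR adjusted p = 0.203). With miR-23a it had 43.5, 39.2, 47.1 and 64.7 CPM, the lowest of the mimic groups on average, and -0.60 ± 0.19 on the log2 scale against miR-24 (edgeR adjusted p = 0.0708).

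CDC6 and CDT1, the loaders that ORC recruits, did not pass in any comparison by edgeR, while DESeq2 called Cdt1 for miR-23a against miR-27a. Cdc6 had 103, 60.6, 43.5 and 49.0 CPM with miR-23a, 85.7, 60.3, 54.3 and 64.3 CPM with miR-24, 102, 80.8, 48.4 and 68.7 CPM with miR-27a and 32.6, 65.5, 53.0 and 44.3 CPM with control. Library 1 was the highest of each mimic group, and the groups overlap throughout. Cdt1 had 46.4, 31.0, 29.5 and 30.7 CPM with miR-23a, 66.1, 75.1, 43.6 and 47.1 CPM with miR-27a and 48.8, 39.6, 43.7 and 46.6 CPM with control. Its largest difference was between miR-23a and miR-27a, -0.75 ± 0.21 on the log2 scale (edgeR adjusted p = 0.0676), and the ranges touch because miR-23a library 1 was high. With miR-24, Cdt1 stood at 40.4, 40.5, 38.2 and 54.0 CPM, within the control range in libraries 1 and 2, just below it in library 3 and above it in library 4.

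The 6 MCM genes, which encode the ring of the replicative helicase, did not move together. Against control, 3 of the 6 had positive and 3 negative log2 fold changes with miR-23a and with miR-24, and 4 were positive and 2 negative with miR-27a, none past the threshold by edgeR. DESeq2 called Mcm4 with miR-24 and Mcm7 with miR-27a. Mcm2 with miR-24 was near 0 and turned positive under RLE scaling. Mcm4 had 257, 194, 214 and 207 CPM with miR-24, 267, 277, 234 and 260.2 CPM with miR-23a, 327, 329.7, 228 and 251 CPM with miR-27a and 293, 414, 295 and 286 CPM with control. The miR-24 and miR-23a libraries all lay below the control libraries, and the miR-27a libraries overlapped them. Its log2 fold change with miR-24 was -0.58 ± 0.17, the lowest of the 39 in that comparison and just short of the threshold (edgeR adjusted p = 0.0563). Mcm7, in contrast, had 269.7, 233, 149 and 166 CPM with miR-27a, against 147, 128, 114 and 107 CPM with control, with no overlap. The log2 fold change was 0.68 ± 0.19 (edgeR adjusted p = 0.0564), also short of the threshold. The miR-24 libraries, at 152, 149, 163 and 158 CPM, were likewise above every control library, with a smaller difference of 0.35 ± 0.19 (edgeR adjusted p = 0.316).

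Mcm6 had 323, 319, 228 and 329 CPM with miR-27a and 407, 335, 395 and 388 CPM with control, lower in each miR-27a library than in any control library. At -0.35 ± 0.17 on the log2 scale (edgeR adjusted p = 0.240), it was the lowest member in that comparison and not called. The other ring genes were not called by edgeR or DESeq2. Mcm2 ranged over 111 to 181 CPM with miR-23a, 99.9 to 111 with miR-24, 94.2 to 179 with miR-27a and 85.3 to 149 with control. Mcm3 ranged over 109 to 257, 176 to 223, 126 to 276 and 153 to 244 CPM in the same order of groups. Mcm5 ranged over 98.7 to 199, 132 to 170.4, 103 to 209 and 48.8 to 129.9 CPM in that order, the lowest being the 3 reads of control 1. All 4 miR-24 libraries were above the control libraries for Mcm5, and every other mimic group overlaps the control group in these 3 genes. The log2 fold changes against control ran from -0.10 (Mcm3, miR-23a) to 0.37 (Mcm5, miR-24).

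Helicase activation gave no call by edgeR or DESeq2. Cdc45, the helicase cofactor, had 45.0, 44.2, 43.5 and 39.5 CPM with miR-23a, 50.1, 56.8, 51.2 and 48.7 CPM with miR-24, 72.3, 70.0, 52.1 and 45.8 CPM with miR-27a and 32.6, 47.6, 37.7 and 42.5 CPM with control. The miR-24 libraries were all above the control libraries and the miR-27a libraries overlapped them at the lower end, with log2 fold changes of 0.28 ± 0.19 and 0.47 ± 0.20 (edgeR adjusted p = 0.455 and 0.178). Of the 4 GINS subunits, Gins4 had 17.5, 17.7, 26.4 and 28.4 CPM with miR-24, 31.6, 43.2, 50.2 and 30.5 CPM with miR-27a and 32.6, 32.6, 34.2 and 34.1 CPM with control. The miR-24 libraries were below every library of both other groups, -0.81 ± 0.26 on the log2 scale against miR-27a (edgeR adjusted p = 0.0828) and -0.57 ± 0.27 against control (edgeR adjusted p = 0.247). Gins4 was at the same time the highest member for miR-23a against miR-24 (0.69 ± 0.26). Gins1, Gins2, Gins3 and Mcm10, an initiation factor that binds the helicase, had no read in control 1 and log2 fold changes from -0.70 (Gins1, miR-23a) to 0.89 (Gins2, miR-27a) against control. Gins2 shares 67.3% of its exon bases with Gse1 on the other strand, and no source used here states strand counting. Whether reads there were counted for Gins2, or left out because they fall on both genes, is not known.

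The polymerase and primase genes did not pass by edgeR, and DESeq2 called Pold1 with miR-24 against control. Against control, 4 of the 6 had positive log2 fold changes in miR-23a libraries and 5 did in each of the miR-24 and miR-27a sets. Pola1 with miR-23a lay near 0, at -0.04. Pold1, the catalytic subunit of polymerase delta, had 27.4, 68.7, 53.3 and 49.3 CPM with miR-24, against 32.6, 35.2, 25.4 and 25.8 CPM with control. The miR-24 libraries 2 to 4 were above all control libraries and miR-24 library 1 was not. The log2 fold change was 0.80 ± 0.24 (edgeR adjusted p = 0.0673). Prim1, the catalytic primase subunit, was the only one of the 6 with a negative value against control with all 3 mimics, from -0.60 with miR-23a to -0.23 with miR-24, none called. Pole, Pola1, Pola2 and Prim2 lay between -0.04 and 0.56 on the log2 scale over the 3 comparisons with control.

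The clamp loader held both genes of the 4-group test. Replication factor C opens the PCNA ring and closes it around DNA, with RFC1 as the large subunit and RFC2 to RFC5 as the small ones. Rfc3 had 63.0, 76.5, 149.9 and 122 CPM with miR-24, 28.7, 42.1, 37.0 and 79.6 CPM with miR-23a, 49.7, 51.7, 160.2 and 112 CPM with miR-27a and 16.3, 26.5, 50.5 and 91.4 CPM with control. Each miR-24 library was above the miR-23a and the control library of its number, although the groups overlap. Libraries numbered 3 and 4 were the higher ones in 3 of the groups, and in miR-23a library 4 was the highest.

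For Rfc3 the log2 fold change was 1.19 ± 0.28 with miR-24 against control (95% interval 0.61 to 1.78; edgeR adjusted p = 0.0220). It was -1.13 ± 0.26 for miR-23a against miR-24 (95% interval -1.66 to -0.59; edgeR adjusted p = 0.0134). The direction of the difference was the same in all 4 numbered pairs of each comparison. For miR-24 against control that pairing rests on the shared number alone, and the Rfc3 value of control library 1 is a single read. With miR-27a against control the value was close in size, 0.99 ± 0.28, and missed the threshold (edgeR adjusted p = 0.0593), and the direct difference between miR-24 and miR-27a was 0.20 ± 0.25 (95% interval -0.32 to 0.73; edgeR adjusted p = 0.724). Without the block the adjusted p of Rfc3 was 0.371 for miR-24 against control and 0.286 for miR-23a against miR-24. In the 4-group test Rfc3 passed in all 16 fits without 1 library, and Rfc2 in 3 of them, those without control library 1, 2 or 4. Against control the miR-24 call was lost without miR-24 library 2 or 3 or control library 2 or 3, and the call against miR-24 was lost without miR-23a library 3 or miR-24 library 2 or 3.

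Rfc2 had 34.8, 30.0, 26.1 and 24.4 CPM with miR-24, 23.1, 21.6, 11.8 and 13.8 CPM with miR-23a, 21.3, 20.2, 14.1 and 15.3 CPM with miR-27a and 16.3, 20.1, 15.9 and 17.8 CPM with control. All 4 miR-24 libraries lay above all 12 libraries of the other groups. For miR-23a against miR-24 the log2 fold change was -0.75 ± 0.21 (95% interval -1.19 to -0.32; edgeR adjusted p = 0.0387, and 0.205 without the block). Against miR-27a and against control, miR-24 differed by 0.71 ± 0.21 and 0.59 ± 0.22 on the log2 scale, neither past the threshold by edgeR (adjusted p = 0.0587 and 0.144) and both called by DESeq2. The call against miR-24 was lost in all 8 fits that left out 1 library. Rfc2 shares 15.1% of its exon bases with Lat2 on the other strand. Whether reads there were counted for Rfc2, or left out because they fall on both genes, is not known.

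Pcna had 495, 411, 235 and 336 CPM with miR-23a, 589, 412, 333 and 389 CPM with miR-24, 638, 671, 408 and 606 CPM with miR-27a and 407, 341, 533 and 691 CPM with control. The groups overlap, and the largest difference, miR-23a against miR-27a, was -0.67 ± 0.23 on the log2 scale (edgeR adjusted p = 0.131). The other loader subunits did not pass. Rfc5 was 23.2 to 26.9 CPM with miR-24, 17.1 to 20.6 CPM with miR-23a, 16.8 to 27.1 CPM with miR-27a and 0 to 22.9 CPM with control. Rfc4 was 16.4 to 22.5 CPM with miR-24, 26.5 to 32.5 CPM with miR-27a, 13.35 to 28.6 CPM with miR-23a and 0 to 27.7 CPM with control. The miR-27a range of Rfc5 and the miR-23a range of Rfc4 thus cover the miR-24 range. On the other strand, Rfc4 shares 12.65% of its exon bases with Eif4a2 and Rfc5 shares 10.69% with Wsb2. With miR-24 against control, Rfc2, Rfc3 and Rfc5 had positive log2 fold changes, Rfc4 stood at -0.19 and Rfc1 at -0.03.

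**Figure D2:**
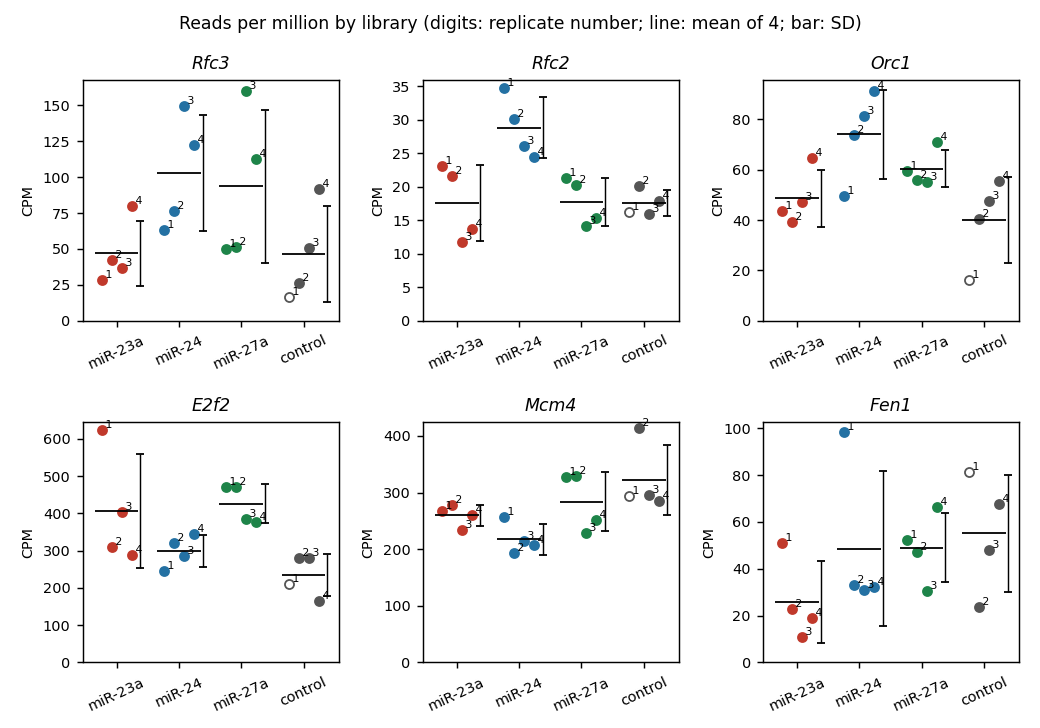
CPM by library for 6 members, with miR-23a, miR-24 and miR-27a left of control, the replicate number beside each point, lines at the mean of 4 libraries and bars of 1 SD. The open point is control 1. Rfc2 shows all 4 miR-24 points above the other 12, and Rfc3 shows libraries 3 and 4 above libraries 1 and 2 within the miR-24, miR-27a and control groups.

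Single-strand binding and strand joining gave no call by edgeR, and DESeq2 called Fen1 for miR-23a against control and against miR-27a. Fen1, the flap endonuclease that trims Okazaki fragments, had 51.2, 22.8, 10.7 and 19.2 CPM with miR-23a, 98.2, 33.1, 30.7 and 32.3 CPM with miR-24, 52.3, 47.0, 30.6 and 66.3 CPM with miR-27a and 81.4, 23.6, 48.2 and 67.5 CPM with control. It varied widely within every group, with library 1 highest in 3 of the 4. Its log2 fold changes with miR-23a were -1.26 ± 0.34 against control and -1.11 ± 0.32 against miR-27a, the lowest of the 39 members in both comparisons (edgeR adjusted p = 0.109 and 0.0698). Fen1 shares 78.8% of its exon bases with the antisense gene Gm10143, and the strands cannot be told apart. Lig1, the ligase that seals nicks, had log2 fold changes against control of -0.20 under miR-23a, -0.28 under miR-24 and -0.31 under miR-27a. Rpa1 and Rpa2, subunits of the single-strand binding protein RPA, lay between -0.17 (Rpa2, miR-24) and 0.37 (Rpa2, miR-27a).

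The 4 genes of deoxynucleotide synthesis all had positive log2 fold changes with miR-27a against control. None was called by edgeR, and DESeq2 called Rrm2. Rrm2, the regulated subunit of ribonucleotide reductase, had 339, 474, 292 and 318 CPM with miR-27a, against 212, 201, 223 and 231 CPM with control, without overlap. The log2 fold change was 0.70 ± 0.20 (edgeR adjusted p = 0.0606). With miR-24 and miR-23a, Rrm2 had 225, 220.1, 240.0 and 326 CPM and 261, 269, 174 and 281 CPM, ranges that hold or reach the control values. Rrm1, the large subunit, had 486, 489.9, 362 and 370.2 CPM with miR-27a and 358, 348, 347 and 334 CPM with control, all miR-27a libraries being higher, at a difference of 0.28 ± 0.19 (edgeR adjusted p = 0.404). Tyms, which makes thymidylate, had 159, 153, 108 and 114 CPM with miR-27a and 48.8, 90.2, 79.1 and 133 CPM with control, which overlap. Against miR-27a, miR-24 had a negative value for all 4 genes, lowest for the thymidine kinase Tk1, -0.88 ± 0.27 on the log2 scale (edgeR adjusted p = 0.0664).

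For cyclin E and E2F, E2f2 separated from control with 2 mimics and was not called by edgeR, while DESeq2 called it with miR-27a against control. E2F2 is an activating E2F, and in human cell lines it has been reported as a target of miR-24. E2f2 had 623, 309, 403 and 288 CPM with miR-23a, 245, 321, 286 and 346 CPM with miR-24, 470.1, 472, 386 and 378 CPM with miR-27a and 212, 279, 281 and 165 CPM with control. All miR-23a and miR-27a libraries were above all control libraries, and the miR-24 libraries overlapped them. The log2 fold changes against control were 0.73 ± 0.24 in miR-23a, 0.34 ± 0.23 in miR-24 and 0.82 ± 0.23 in miR-27a libraries (edgeR adjusted p = 0.153, 0.437 and 0.0608). For miR-24 the 95% interval ran from -0.14 to 0.83, and against miR-27a from -0.95 to -0.01.

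E2f1 had 42.3, 24.9, 24.4 and 14.2 CPM with miR-27a, 25.7, 25.1, 19.0 and 24.1 CPM with miR-24, 42.6, 20.9, 22.9 and 17.8 CPM with miR-23a and 0, 18.5, 11.3 and 14.5 CPM with control, and each mimic gave a log2 fold change of 0.57 to 0.65 that was not called. Ccne1, cyclin E1, had 39.2, 39.2, 49.0 and 29.2 CPM with miR-23a, 24.7, 29.1, 34.1 and 30.9 CPM with miR-24, 51.9, 43.2, 57.2 and 39.5 CPM with miR-27a and 65.1, 27.8, 9.01 and 29.1 CPM with control. The control libraries were spread over a wider range than any mimic group, with library 3 lowest and library 1 (4 reads) highest. Ccne1 was the highest member with miR-23a (0.74 ± 0.35) and with miR-27a (1.03 ± 0.36) against control, and neither was called (edgeR adjusted p = 0.296 and 0.109). Ccne2, cyclin E2, had a log2 fold change of -0.40 under miR-23a, -0.04 under miR-24 and 0.07 under miR-27a, and shares 17.4% of its exon bases with Ints8 on the other strand.

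**Figure D3:**
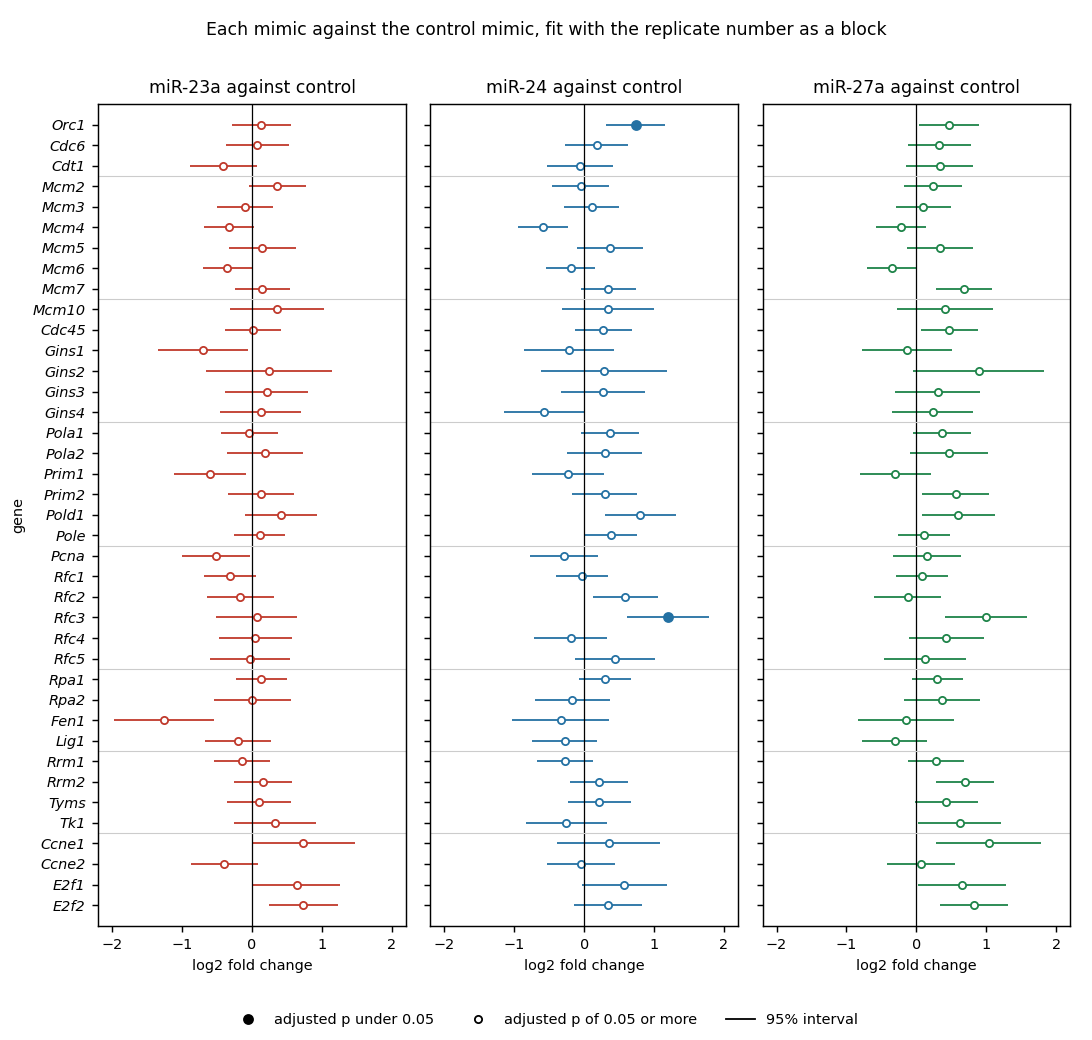
Log2 fold change of each member with each mimic against control, with 95% intervals from the fit that blocks on the replicate number. Filled points, Orc1 and Rfc3 with miR-24, passed the threshold. Most intervals span 0, and with miR-27a 32 of the 39 points lie right of it.

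As a list, the members leaned to higher values with miR-27a. Their median log2 fold change against control was 0.33 with miR-27a, with 32 of 39 positive, 0.22 with miR-24, with 23 positive, and 0.07 with miR-23a, with 24 positive. Over all genes tested the medians were 0.02, 0.04 and 0.04, with 51.4%, 53.1% and 52.9% of genes positive. Between mimics the members' median was -0.15 for miR-24 against miR-27a, -0.16 for miR-23a against miR-24 and -0.30 for miR-23a against miR-27a, where 36 of 39 were negative. Over all genes these medians were 0.03, -0.01 and 0.03. With miR-27a against control, the 36 further replication factors described below showed no such lean (median 0.0014, 18 positive and 18 negative). The medians there were 0.20 for nucleotide supply and S-phase maintenance, 0.18 for G1/S control and 0.18 for mitosis. For miR-23a against miR-27a, 27 of those 36 factors (median -0.21) and 32 of 35 mitosis genes (median -0.28) were also negative. No test was made of a list as a whole. Over the fits that left out 1 library, or the libraries numbered 1 of every group, the median was -0.01 to 0.14 for miR-23a, 0.12 to 0.26 for miR-24 and 0.26 to 0.43 for miR-27a against control. For miR-24 it was 0.12 without miR-24 library 4 and 0.13 without control library 2, and for miR-23a it was at or near 0 without miR-23a library 4 or control library 1. Between mimics the median was -0.25 to -0.09 for miR-24 against miR-27a (-0.25 and -0.23 without miR-27a or miR-24 library 4, -0.09 and -0.10 without miR-27a library 1 or 2), -0.22 to -0.09 for miR-23a against miR-24 (-0.09 without miR-24 library 3) and -0.37 to -0.21 for miR-23a against miR-27a. Under the other scaling (RLE), 32, 27 and 25 members were positive with miR-27a, miR-24 and miR-23a against control.

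The median member had a standard error of 0.23 on the log2 scale for each mimic against control and 0.22 between mimics, and the 95% interval reached a median of 0.47 to 0.48 to each side against control and 0.45 between mimics. The interval lay within a 2-fold change either way for 30 members in the miR-23a comparison, 29 in the miR-24 and 27 in the miR-27a comparison against control.

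**Figure D4:**
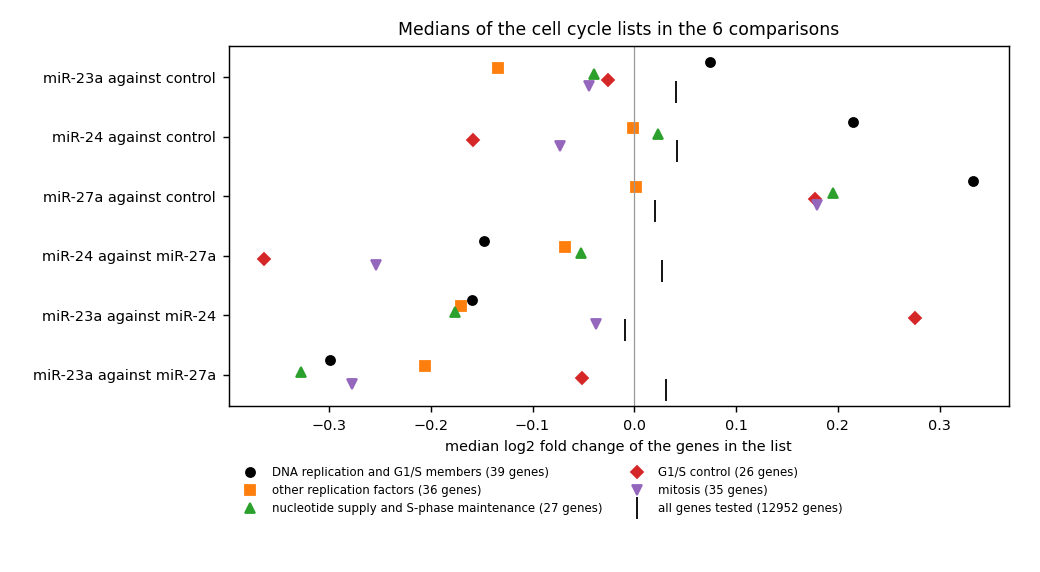
Median log2 fold change of each list in the 6 comparisons, where the first named group is on top of the fold change. The members (filled circles) lie right of all genes (bars) in the 3 comparisons with control and left of them in the other 3.

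Further lists of cell cycle genes also held called genes. Of 36 further replication factors tested, miR-24 gave 2 higher and 1 lower against control, miR-23a 1 lower and miR-27a 0 (10 at an unadjusted p under 0.05, 1 by DESeq2). These calls were 8.33%, 2.78% and 0% of the list, beside 4.56%, 0.425% and 3.07% of all genes. For miR-27a the unadjusted share was 27.8%, beside 21.8% of all genes, and DESeq2 called 951 of all genes. Top1, the topoisomerase that relaxes DNA ahead of the fork, had 65.3, 65.4, 56.3 and 68.3 CPM with miR-23a, 108, 58.7, 60.0 and 69.8 CPM with miR-24 and 130.2, 124, 153 and 218 CPM with control. It fell with both mimics, by 1.34 and 1.15 on the log2 scale (edgeR adjusted p = 0.00427 and 0.00410), with every library below the control libraries. Both calls held without the block (adjusted p = 0.0199 and 0.0238). Rnaseh2a, a subunit of the RNase that removes ribonucleotides, and Chtf18, of an alternative clamp loader, rose with miR-24 by 1.24 and 1.51 on the log2 scale (edgeR adjusted p = 0.0393 and 0.0491), and both calls were lost without the block (0.124 and 0.158).

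Of 27 genes of nucleotide supply and S-phase maintenance, 4 rose with miR-24, 2 with miR-27a and 0 passed with miR-23a (8 at an unadjusted p under 0.05, 3 by DESeq2) against control. Uhrf1, which couples DNA methylation to replication, had 101, 119, 127 and 151 CPM with miR-24, 211, 178, 155 and 106 CPM with miR-27a and 114, 75.0, 46.1 and 67.2 CPM with control. It rose by 0.90 and 1.23 on the log2 scale (edgeR adjusted p = 0.0421 and 0.0132). The purine synthesis gene Gart rose with miR-24, by 1.25 ± 0.26 (edgeR adjusted p = 0.0114), and so did the serine hydroxymethyltransferase gene Shmt2, by 1.38 ± 0.36 (edgeR adjusted p = 0.0370). The CTP synthase gene Ctps rose with miR-24, by 1.18 ± 0.32, and with miR-27a, by 1.24 ± 0.33 (edgeR adjusted p = 0.0448 and 0.0473). Slbp, which binds histone mRNA, fell by 1.12 on the log2 scale with miR-23a against miR-27a (edgeR adjusted p = 0.00149). Without the block Gart and Slbp passed (adjusted p = 0.0320 and 0.0129) and the other calls of this paragraph did not, the nearest being Uhrf1 with miR-27a (0.0623).

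Among 26 G1/S control genes, 3 fell with miR-24, 2 fell with miR-27a and 0 passed with miR-23a (5 at an unadjusted p under 0.05, 1 by DESeq2) against control. Rbl2, the RB-family protein p130 that represses E2F targets in resting cells, had 216, 228, 162 and 211 CPM with miR-24, 169.7, 268, 207 and 399 CPM with miR-27a and 342, 549, 635 and 782 CPM with control. All miR-24 libraries were below all control libraries, and in miR-27a library 4 overlapped control library 1. It fell by 1.48 with miR-24 and 1.20 with miR-27a on the log2 scale (edgeR adjusted p = 0.000792 and 0.00465, without the block 0.0101 and 0.0741). Fbxw7, which targets cyclin E for degradation, fell by 1.13 with miR-27a (edgeR adjusted p = 0.0134). Myb and E2f8, an activating and a repressive transcription factor of the cycle, fell by 1.10 and 0.89 with miR-24 (edgeR adjusted p = 0.0289 and 0.0367). Without the block the adjusted p was 0.0855 for Fbxw7, 0.122 for Myb and 0.230 for E2f8. Myc, a driver of T cell growth, had 276, 105, 77.4 and 65.5 CPM with miR-24, 91.0, 44.1, 48.1 and 106 CPM with miR-27a, 128, 100.2, 76.7 and 86.7 CPM with miR-23a and 179, 69.0, 75.9 and 196 CPM with control, with overlapping groups and no call.

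Of 7 inhibitors of cyclin-dependent kinases, 2 rose and 1 fell with miR-24, 2 rose with miR-27a and 0 passed with miR-23a (1 at an unadjusted p under 0.05, 1 by DESeq2). Cdkn2b (p15) had 7.52, 10.3, 23.0 and 12.8 CPM with miR-24, 7.10, 8.92, 21.5 and 7.74 CPM with miR-27a and 0, 3.63, 2.97 and 1.98 CPM with control, and rose by 2.28 ± 0.49 and 2.05 ± 0.50 on the log2 scale (edgeR adjusted p = 0.0126 and 0.0301). Cdkn1a (p21) rose with miR-27a, with 446, 464, 636 and 395 CPM against 97.7, 167, 309 and 147 CPM with control (1.47 ± 0.37 on the log2 scale, edgeR adjusted p = 0.0423), and was called with miR-24 by DESeq2 alone (1.23, edgeR adjusted p = 0.0705). With miR-23a Cdkn1a stood at 1.25 ± 0.38 against control (edgeR adjusted p = 0.140), likewise called by DESeq2 alone. Between mimics its log2 fold changes were -0.24 to 0.01, none called by edgeR or DESeq2. Cdkn1b (p27) fell with miR-24, with 40.4, 31.3, 64.4 and 55.3 CPM against 48.8, 103, 126 and 71.5 CPM with control, and decreased by 1.00 on the log2 scale (edgeR adjusted p = 0.0297). Cdkn2a was also called higher with miR-24, at 3.51, 1.23, 7.39 and 1.39 CPM against 0, 0.588, 0.540 and 0 CPM with control, a level so low that its fold depends on the prior count. Of the calls in this paragraph, Cdkn2b with miR-24 alone passed without the block (adjusted p = 0.0477).

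Of 35 mitosis genes, 1 rose with miR-27a, 1 fell with miR-24 and 0 passed with miR-23a (6 at an unadjusted p under 0.05, 1 by DESeq2). Ccnb1, cyclin B1, had 179, 221, 260.1 and 158 CPM with miR-27a and 97.7, 103, 81.9 and 93.7 CPM with control, all higher, and rose by 1.23 ± 0.23 on the log2 scale (edgeR adjusted p = 0.00665). Cenpf, a kinetochore gene, fell by 0.89 with miR-24 (edgeR adjusted p = 0.0380). Neither passed without the block (adjusted p = 0.0691 and 0.299). The median of the mitosis list was 0.18 with miR-27a and -0.07 with miR-24 against control.

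Few members carry a seed site for the mimics. In the longest annotated 3′ UTR of each gene, a match to bases 2 to 8 of the microRNA was present in 3 of 39 members for miR-23a (7.69%, against 17.2% of 11022 tested genes searched), in 4 for miR-24 (10.3%, against 19.6%) and in 6 for miR-27a (15.4%, against 18%). The members' UTRs were shorter, with a median of 780 bases against 1248, and these shares are descriptions. The members with a site were Mcm5, Cdc45 and Rfc2 for miR-23a, Mcm2, Cdc6, Gins2 and E2f2 for miR-24, and Mcm4, Mcm6, Mcm10, Rfc2, Rfc4 and Rrm2 for miR-27a. The median log2 fold change with the matching mimic against control was 0.01 for members with a miR-23a site and 0.08 for those without. The same medians were 0.23 and 0.22 with miR-24 sites, and 0.14 and 0.33 where miR-27a was the mimic. No member with a site for a mimic passed the threshold against control with that mimic.

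A pair of these sites is shown because their genes lay on opposite sides. Each is written on the gene's strand (GRCm38), 5′ to 3′, with the bases that match the seed in capitals, and for Mcm6 also the A after them.
E2f2, miR-24 site, match at chr4:136193721-136193727, plus strand: tcttatctttcCTGAGCCtcccaatgtaa
Mcm6, miR-27a site, match at chr1:128332924-128332931, minus strand: cattgtgtctcACTGTGAAgcccacactgg
E2f2 stood at 0.34 ± 0.23 on the log2 scale with miR-24 and Mcm6 at -0.35 ± 0.17 with miR-27a against control, neither called.

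Promoter sequence was compared because E2F factors act on many of these genes. RefSeq promoter windows, 250 bases before to 50 after the start (GRCm38.p6), were found for 31 of the 39 members. Of these, 15 (48.4%) held one of the E2F-type motifs TTTGGCGC, TTTCGCGC, TTTGGCGG or TTTCCCGC on either strand, against 4.96% of the 9195 tested genes with a window and 2.70% of all 27025. Matches to different motifs can overlap on opposite strands, and a gene was counted once. CCAAT, on either strand, was in 61.3% of members, 43.1% of tested genes and 41.1% of all. The windows of the 2 genes that rose with miR-24 are shown, 5′ to 3′ on the gene's strand, with matches to the E2F-type motifs and to CCAAT in capitals.
Rfc3, chr5:151651159-151651458, minus strand: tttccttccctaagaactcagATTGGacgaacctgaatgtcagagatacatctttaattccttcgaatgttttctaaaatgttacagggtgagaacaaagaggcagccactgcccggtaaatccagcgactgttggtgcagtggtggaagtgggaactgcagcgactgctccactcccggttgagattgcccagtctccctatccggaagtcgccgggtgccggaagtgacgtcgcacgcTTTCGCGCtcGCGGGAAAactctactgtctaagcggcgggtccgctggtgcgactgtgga
Orc1, chr4:108579204-108579503, plus strand: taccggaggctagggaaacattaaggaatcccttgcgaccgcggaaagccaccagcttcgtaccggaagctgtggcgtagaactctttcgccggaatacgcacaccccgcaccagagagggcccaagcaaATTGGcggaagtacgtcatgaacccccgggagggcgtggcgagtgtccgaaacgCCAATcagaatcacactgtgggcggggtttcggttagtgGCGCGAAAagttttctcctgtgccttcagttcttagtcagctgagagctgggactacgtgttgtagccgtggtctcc
In the Rfc3 window the E2F-type matches are TTTCGCGC and, on the other strand, TTTCCCGC. The Orc1 window holds TTTCGCGC on the other strand. The windows of Mcm3, Mcm5, Mcm6, Mcm7, Cdc6 and E2f2 also hold motifs of this type, those of Mcm3 and E2f2 after the start, and edgeR called none of these 6 genes (DESeq2 called Mcm7 and E2f2). Rfc2 had no window in the table.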

How the data were processed

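The authors deposited raw read counts per gene symbol for each of the 16 libraries. Per the submitters' processing notes, Bowtie2, TopHat, DESeq and the mm10 build were used; the version of each, and the counter, annotation and strand setting, are not given in the sources used here. Per the labels' protocols, 1 ng of RNA was amplified with NuGEN kits and read as single 50-base reads with 4 libraries per lane. The 5 summary lines of each file (64.6% to 77.6% of its counts) stayed out of library sizes and tests.

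Members and lists were chosen with earlier results of these data known. Tests were run with edgeR 4.0.16 (R 4.3.3): filterByExpr by group (12952 genes), TMM scaling, and the robust quasi-likelihood test over all 16 libraries with group and replicate number as terms, two-sided, with Benjamini-Hochberg adjustment at 0.05. The biological coefficient of variation was 0.290, and 0.389 without the block. edgeR raises p to that of a Poisson fit for genes with very small spread, so for a few genes p exceeds what the fold change and its SE imply. CPM were computed on library sizes after TMM, with a prior count of 2 on the log2 scale. The scripts were tested on simulated data. Alternatives were RLE scaling, no filter, DESeq2 1.42.0, the compared groups only, no block and leaving out libraries.

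Members called in a comparison and 18 core genes were named with values, others by range. Of each further list up to 3 called genes per comparison were named, with Ctps added for miR-24 against control. Myc, Cdkn1a and Cdkn1b were named as well.

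The replicate number, taken from the sample titles, is a block because the comparison of all 4 groups was set out that way. Deviations from the group mean were correlated between libraries of the same number over 4746 genes. All 4 correlations exceeded 0.1 for miR-27a against control (lowest 0.198), miR-23a against miR-24 (0.350) and miR-23a against miR-27a (0.257). They did not for miR-23a against control (lowest -0.12), miR-24 against miR-27a (-0.0072) or miR-24 against control (0.0304), so for those the pairing rests on the shared number alone, and each call is given without the block too. No libraries were duplicates: counts of replicates differed beyond sampling noise (chi-square per degree of freedom 1.73 or more). Seed sites and promoters were searched with GENCODE M21 (GRCm38) and RefSeq (GRCm38.p6).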

Additional observations from a re-analysis of the deposited data

Results flagged for a closer look

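Of 84 sets of 4 libraries tested for 1 library far from the other 3, 6 were flagged, where chance flags about 5%. Mcm5 with miR-23a was 199 CPM in library 1, and the nearest of the others had 111 CPM. Cdt1 with miR-23a was 46.4 CPM in the same library, beside 31.0 CPM in the nearest. Cdt1 with miR-24 was 54.0 CPM in library 4, beside 40.5 CPM. Mcm6 with miR-27a was low, 228 CPM, in library 3, beside 319 CPM. Mcm4 with control was 414 CPM in library 2, beside 295 CPM. The mean log2-CPM of the members in control was 4.77 in library 1, which held 51474 gene reads, beside 5.93 in the nearest.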

How the results depend on the processing

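Without the replicate block, members called were 0 in the 4-group test, in miR-24 against control and in miR-23a against miR-24. All genes called were then 251 in the 4-group test, 17, 110 and 22 for miR-23a, miR-24 and miR-27a against control, 114 for miR-24 against miR-27a, 142 for miR-23a against miR-24 and 71 for miR-23a against miR-27a. With DESeq2, members called were 8 in the 4-group test, 1, 5 and 4 against control (miR-23a, miR-24, miR-27a), 2 for miR-24 against miR-27a and 3 for miR-23a against miR-27a, and all genes 2323, 364, 1029, 951, 999, 1060 (miR-23a against miR-24) and 713. With RLE scaling 1 member passed for miR-24 against miR-27a. Without the filter 1 member, Rfc3, passed in the 4-group test, in miR-24 and miR-27a against control and in miR-23a against miR-24. With the compared groups only, members called were 1 for miR-24 and 5 for miR-27a against control and 2 for miR-23a against miR-27a, and all genes 34 for miR-23a and 1883 for miR-27a against control and 148 for miR-24 against miR-27a.

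Leaving out 1 library, or all numbered 1, gave 1 to 5 members and 584 to 1780 genes in the 4-group test, 0 to 1 and 12 to 334 for miR-23a against control, 0 to 4 and 123 to 1490 for miR-24 against control, 0 to 3 and 51 to 1010 for miR-27a against control, 0 to 2 and 190 to 737 for miR-24 against miR-27a, 0 to 2 and 262 to 796 for miR-23a against miR-24, and 0 to 1 and 127 to 413 for miR-23a against miR-27a. Calls therefore depend on single libraries: leaving out control library 3 cut the genes called with miR-27a against control to 51, and leaving out control library 2 raised them to 1010. No member reversed its sign under these settings in a comparison in which it was called. Elsewhere 85 alternative log2 fold changes changed sign, such as Rfc3 with miR-23a against control, 0.07 and -0.18 without the block. The members' medians moved by less than the spread between replicates (SD 0.16 log2-CPM) in all 84 alternative values, and 1 changed sign (miR-23a against control, -0.01 without miR-23a library 4). That spread is about as large as the medians -0.15 and -0.16 and larger than 0.07. A median could therefore reach 0 within it, so the comparison does not show that the medians are stable. The limits are the depth of control library 1, the unstated origin and strand of the libraries, and 4 libraries per group.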
